A study of Drosophila melanogaster with 12 samples.

Results

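Poly(A) sites of wild-type flies were compared between 4 later and 4 earlier libraries of one strain, to describe which genes and transcript ends varied when genotype did not. The series held 12 libraries made by 3'READS and 3'READS+, which capture RNA fragments that carry a poly(A) tail and sequence up to it, so that each read marks the last transcribed base before the tail. The 8 wild-type libraries, chosen by their labels, came from dissected heads and bodies of adult w1118 flies, a white-eyed laboratory strain: replicates 3 and 4 of heads, replicates 3 and 4 of bodies, replicates 1 and 2 of heads and replicates 1 and 2 of bodies, with 2 libraries in each group. The other 4 libraries, from RpII215 flies with the C4 allele of the largest RNA polymerase II subunit, entered no test. Age, sex and dates were not given, "later" refers to sample numbers only, and the sources used here do not give which of the 2 protocols made which library, so protocol, time and replicate set cannot be told apart. Whether replicates were separate flies is not in the labels either, and the p-values below then measure the spread between these libraries only, part or all of which may be technical.

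A messenger RNA is cut by a protein complex that reads signals around the cut, such as a hexamer upstream of it, and a poly(A) tail is then added at the new end. Most fly genes have more than 1 such site. A site nearer to the stop codon (proximal) leaves a shorter 3' untranslated region (3'UTR) than a distal one, and neurons are known for long 3'UTRs. A site upstream of the last coding base can end the transcript early. The counts of reads at each site therefore hold both how much RNA a gene made and where that RNA ended.

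The libraries held 2219693 to 8591047 reads. Replicates 3 and 4 held 7885275 and 6346523 in heads and 8591047 and 8527199 in bodies, against 3821065 and 2461527 in heads and 7142301 and 2219693 in bodies of replicates 1 and 2. Genes could be named on most of chromosome arm 2L and on the start of 3L, where 2638 genes passed the filter on low counts, and sites were counted over the whole genome (20468 tested). Photoreceptor and seminal fluid markers matched the labelled tissues: the summed level of 4 photoreceptor markers was 25869 to 27731 CPM (counts per 1e+06 reads of named genes, scaled by TMM) in heads of replicates 3 and 4 and 39281 to 82865 CPM in heads of replicates 1 and 2, and 25.7 to 52.1 CPM and 3943 to 6628 CPM in the bodies of the same sets. Seminal fluid genes of the male accessory gland, 4 of 4 with reads, summed to 7793 and 7982 CPM in bodies of replicates 3 and 4 and to 6481 and 9107 CPM in bodies of replicates 1 and 2. The follicle-cell marker Vm32E and the testis markers Mst35Ba and Mst35Bb had no counted reads in any library. Follicle-cell markers Vm26Aa and Vm26Ab, below the filter, did not match the body label. Vm26Aa had 38.9 and 3.36 CPM in heads and 0 and 0 CPM in bodies of replicates 1 and 2. Vm26Ab had 2.79 and 1.90 CPM in heads and 0.855 and 0 CPM in bodies of replicates 3 and 4.

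The 2 sets differed in the level of 1028 of 2638 genes, 536 higher and 492 lower in replicates 3 and 4 (39.0% called; edgeR's quasi-likelihood test with tissue as a term and Benjamini-Hochberg adjustment at 0.05). The fit took heads and bodies of the same replicate number as independent. With the number as a random effect limma called 918 genes, against 1071 in limma without it. Of the genes called by edgeR, 641 changed by at least 4-fold and 122 by at least 16-fold. The median size of the log2 fold change was 1.17 between the sets and 1.21 between heads and bodies in the same fit, where 1342 genes were called (50.9%). In 896 of the 1028 called genes the 2 sets did not overlap in either tissue, all 4 libraries of replicates 3 and 4 lying on the same side, a pattern found in 43.2% of all genes tested whether called or not. All 807 called genes that could be fitted in each tissue alone had the same sign in heads and in bodies. The call pooled both tissues, which works against genes of opposite sign, so this agreement is in large part built in. The fit with a set-by-tissue term called 0 genes at an adjusted p under 0.05 and 137 at an unadjusted p under 0.05, and DESeq2 called 24, so the differences are given below for both tissues together.

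Over the 8 libraries, tissue held 59.2% of the variance of log2(CPM + 1) over genes, the difference between the sets 23.98%, and the part of that difference that was unlike in the 2 tissues 2.90%. Replicate 2 differed from replicate 1 in the same way in heads and bodies, a term that held 9.30%. The like term for replicates 4 and 3 held 1.27%. Over the sites of the whole genome the set term was larger, at 35.4% against 45.6% for tissue. Of the 2412 genes that averaged 10 CPM or more, 241 (9.99%) differed by at least 4-fold between replicates 2 and 1 in both tissues and in the same direction, and 4 (0.166%) did so between replicates 4 and 3. Across genes, Pearson's correlation of log2(CPM + 1) within a tissue was 0.960 to 0.972 between replicates 3 and 4, 0.808 to 0.840 between replicates 1 and 2, and 0.607 to 0.834 between the sets. Libraries of replicates 3 and 4 were thus closer to each other than those of replicates 1 and 2. Many named genes are given with the value of every library, and others by the size of their change only.

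**Figure D1:**
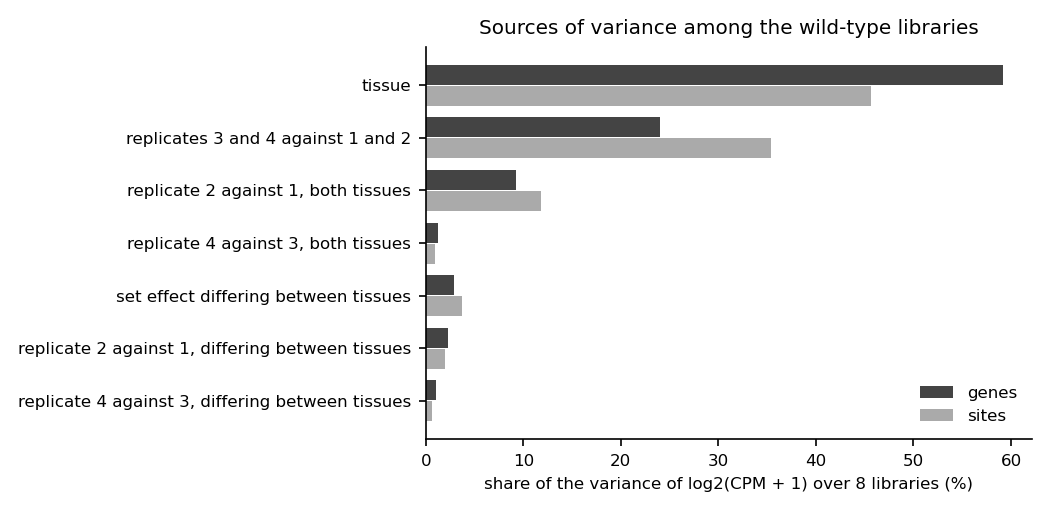
Share of the variance (%) of log2(CPM + 1) over the 8 wild-type libraries held by each term, for 2638 genes (dark bars) and 20468 sites (light bars). Tissue held the most, the difference between replicates 3 and 4 and replicates 1 and 2 came next at 23.98% of genes' and 35.4% of sites' variance, and the difference of replicate 2 from replicate 1 that both tissues shared followed at 9.30% and 11.8%.

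The genes that were highest in replicates 3 and 4 relative to replicates 1 and 2 were mostly ones with few or no reads in the earlier set. CG14275 had 1892 and 1383 CPM in heads and 600.4 and 380.3 CPM in bodies of replicates 3 and 4. By comparison, CG14275 had 21.8 and 13.4 CPM in heads and 11.6 and 3.69 CPM in bodies of replicates 1 and 2 (log2 fold change 6.15 with SE 0.47, edgeR adjusted p = 0.000136). Tsp29Fa, a tetraspanin of the cell membrane, had 126 and 76.8 CPM in heads and 479.8 and 554 CPM in bodies of replicates 3 and 4. Tsp29Fa in the earlier set had 0 and 0 CPM in heads and 6.76 and 3.69 CPM in bodies of replicates 1 and 2 (log2 fold change 6.77 with SE 0.54, edgeR adjusted p = 0.000136). Hsp60C, a relative of the mitochondrial chaperonin Hsp60, had 56.7 and 12.3 CPM in heads and 3049.8 and 4449 CPM in bodies of replicates 3 and 4. Against this, Hsp60C had 0 and 0 CPM in heads and 83.0 and 29.6 CPM in bodies of replicates 1 and 2 (log2 fold change 6.13 with SE 0.76, edgeR adjusted p = 0.000580). These 3 genes differed in which tissue was higher. Each was higher in the later set in both tissues, which the rule that chose them required. The cuticle protein gene Cpr64Ac had 25.1 and 20.9 CPM in heads and 25.7 and 10.4 CPM in bodies of replicates 3 and 4, against 0 and 0 CPM in heads and 0 and 0 CPM in bodies of replicates 1 and 2, a rise of at least 15.4-fold over a floor set at 3 counts in the 4 earlier libraries together (edgeR adjusted p = 0.00369). CG12003 had 25.1 and 5.69 CPM in heads and 89.8 and 1.49 CPM in bodies of replicates 3 and 4. CG12003 had 0 and 0 CPM in heads and 0 and 0 CPM in bodies of replicates 1 and 2. CG12003 was at least 22.9-fold higher on the same floor (edgeR adjusted p = 0.0497), with replicate 3 well above replicate 4. Both Cpr64Ac and CG12003 passed the filter on low counts only through the later set, where they were high. Their folds and p-values are therefore not independent of that filter. CG12003 also depended on single libraries. Leaving out any library but body replicate 4 raised its adjusted p to between 0.0521 and 0.0942. CG13962 also varied within the later set, at 89.2 and 6.64 CPM in heads and 1855 and 54.3 CPM in bodies, against 0 and 0 CPM in heads and 9.65 and 3.70 CPM in bodies of replicates 1 and 2. CG12766, CG5783, CG13894 and CG1275 completed the 10, with log2 fold changes of 7.43, 6.90, 6.04 and 5.84.

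The genes lowest in replicates 3 and 4 included some of the most abundant transcripts of the earlier libraries. Aldh, a mitochondrial aldehyde dehydrogenase, had 799.9 and 616 CPM in heads and 595 and 384 CPM in bodies of replicates 3 and 4. By comparison, Aldh had 26569 and 28290 CPM in heads and 17977 and 22250 CPM in bodies of replicates 1 and 2 (log2 fold change -5.32 with SE 0.44, edgeR adjusted p = 0.000136). Its most read site lay 2 nt past the annotated gene end, and without reads past gene ends its log2 fold change was 0.74 (edgeR adjusted p = 0.536). Both earlier replicates were alike here, and the ranges of the sets lay far apart. RpL27A, a protein of the large ribosomal subunit, had 765 and 617 CPM in heads and 910 and 673 CPM in bodies of replicates 3 and 4. RpL27A in the earlier set had 53432 and 3119.8 CPM in heads and 72978 and 2169 CPM in bodies of replicates 1 and 2 (log2 fold change -5.46 with SE 1.21, edgeR adjusted p = 0.00713), so that replicate 1 stood far above replicate 2 and both above the later set. Sirt1, a protein deacetylase that uses NAD, had 2.79 and 4.74 CPM in heads and 3.42 and 5.95 CPM in bodies of replicates 3 and 4. Against this, Sirt1 had 85.5 and 306 CPM in heads and 142 and 1127 CPM in bodies of replicates 1 and 2 (log2 fold change -6.38 with SE 0.86, edgeR adjusted p = 0.000789), and most of its reads lay at a site 2207 nt before the annotated gene end. The gustatory receptor gene Gr32a had 4.65 and 2.85 CPM in heads and 0 and 2.23 CPM in bodies of replicates 3 and 4. Gr32a had 413 and 406 CPM in heads and 61.8 and 103 CPM in bodies of replicates 1 and 2 (log2 fold change -6.43 with SE 0.57, edgeR adjusted p = 0.000182). Of genes with most reads in bodies, Skadu had 0 and 1.90 CPM in heads and 23.9 and 33.5 CPM in bodies of replicates 3 and 4. By comparison, Skadu had 179 and 225 CPM in heads and 11817 and 5054 CPM in bodies of replicates 1 and 2 (log2 fold change -8.0005 with SE 0.67, edgeR adjusted p = 0.000136). TTLL3B, of the tubulin tyrosine ligase family, had 10.2 and 1.90 CPM in heads and 267 and 254 CPM in bodies of replicates 3 and 4. TTLL3B in the earlier set had 176 and 383 CPM in heads and 19720 and 13877 CPM in bodies of replicates 1 and 2 (log2 fold change -5.78). lncRNA:CR44490, CG17376, Hacd2, which encodes an enzyme of fatty acid elongation, and CG9568 completed the 10, with log2 fold changes of -8.05, -5.93, -5.77 and -5.54.

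**Figure D2:**
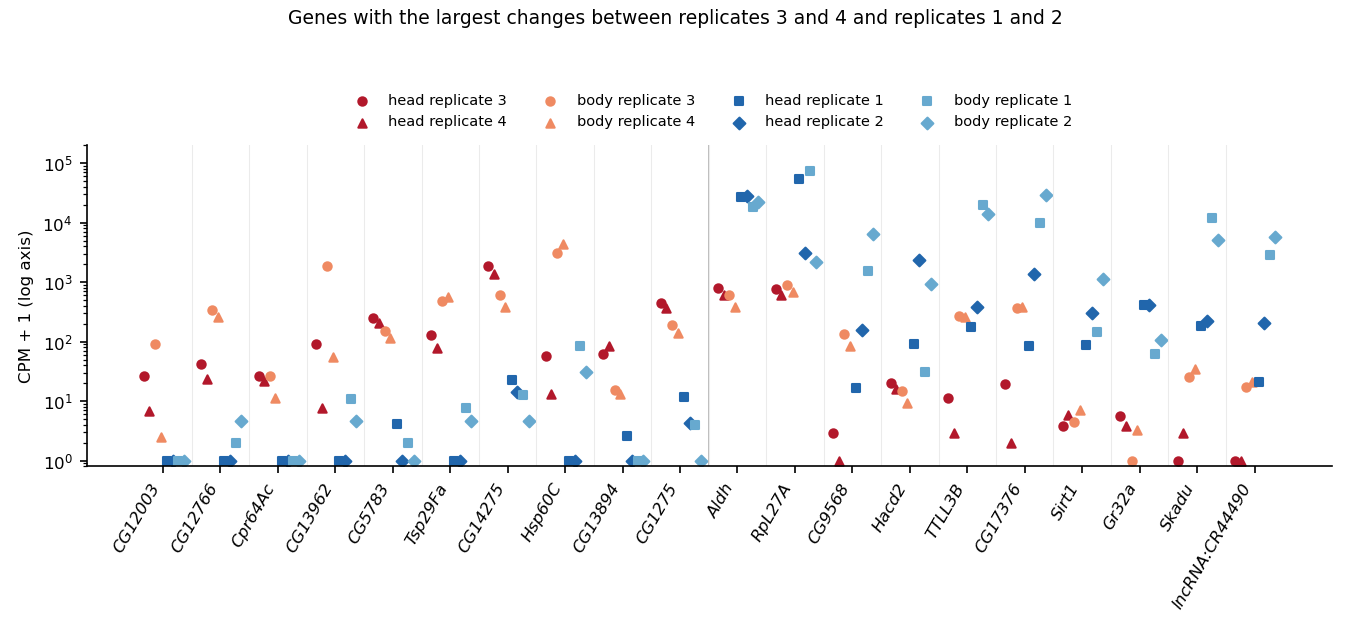
CPM + 1 (log axis) in each of the 8 wild-type libraries for the 10 genes with the largest rises (left of the line) and the 10 with the largest falls (right of it) among called genes averaging 10 CPM or more whose sets did not overlap, the lowest being lncRNA:CR44490 at a log2 fold change of -8.05. Red and orange marks are heads and bodies of replicates 3 and 4, and dark and light blue marks are heads and bodies of replicates 1 and 2, which lie apart from the red marks of their tissue in every gene shown because the rule asked for it.

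Among genes of energy metabolism most calls were rises. Of 19 nuclear genes of the respiratory chain and ATP synthase, 10 rose, 1 fell and 8 were not called, where 20.3% of all genes rose and 18.7% fell, and their median log2 fold change was 1.34 against 0.11 over all genes. Cyt-c-p, which encodes the electron carrier cytochrome c, had 1145 and 709 CPM in heads and 2118 and 845 CPM in bodies of replicates 3 and 4. Against this, Cyt-c-p had 34.2 and 87.3 CPM in heads and 106 and 99.8 CPM in bodies of replicates 1 and 2 (log2 fold change 3.90 with SE 0.47, edgeR adjusted p = 0.000534). COX4, a subunit of cytochrome c oxidase, had 15802 and 12272 CPM in heads and 18709 and 14506 CPM in bodies of replicates 3 and 4. COX4 had 3378 and 4692 CPM in heads and 3828 and 3713 CPM in bodies of replicates 1 and 2 (log2 fold change 1.97 with SE 0.37, edgeR adjusted p = 0.00327). ND-PDSW, a subunit of complex I, had 2688 and 2062 CPM in heads and 3144 and 1782 CPM in bodies of replicates 3 and 4. By comparison, ND-PDSW had 856 and 631 CPM in heads and 747 and 643 CPM in bodies of replicates 1 and 2 (log2 fold change 1.75 with SE 0.34, edgeR adjusted p = 0.00368). ND-51, another subunit of complex I, was the 1 that fell (log2 fold change -1.62). The 16 genes of mitochondrial ribosomes were divided, with 4 risen and 4 fallen and a median of -0.02. mRpS35 had 666 and 646 CPM in heads and 414 and 484 CPM in bodies of replicates 3 and 4. mRpS35 in the earlier set had 32.6 and 26.9 CPM in heads and 34.8 and 22.2 CPM in bodies of replicates 1 and 2 (log2 fold change 4.18 with SE 0.33, edgeR adjusted p = 0.000136). The opposite held for mRpL10, which had 31.6 and 24.7 CPM in heads and 18.8 and 15.6 CPM in bodies of replicates 3 and 4. Against this, mRpL10 had 452 and 269 CPM in heads and 162 and 203 CPM in bodies of replicates 1 and 2 (log2 fold change -3.54 with SE 0.33, edgeR adjusted p = 0.000221).

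Cytosolic ribosomal protein genes, 18 in number, included 6 that rose and 1, RpL27A, that fell, with a median log2 fold change of 1.08. The 7 called made up 38.9% of the list, close to the 39.0% called among all genes tested. RpS13 of the small subunit had 15407 and 12575 CPM in heads and 13978 and 12765 CPM in bodies of replicates 3 and 4. RpS13 had 1789 and 618 CPM in heads and 2667 and 469 CPM in bodies of replicates 1 and 2 (log2 fold change 3.31 with SE 0.63, edgeR adjusted p = 0.00345), and replicate 2 was the lowest in each tissue. RpL30 of the large subunit had 10106 and 8542 CPM in heads and 7314 and 8125 CPM in bodies of replicates 3 and 4. By comparison, RpL30 had 1845 and 1253 CPM in heads and 2204 and 1204 CPM in bodies of replicates 1 and 2 (log2 fold change 2.38 with SE 0.38, edgeR adjusted p = 0.00158). RpL8 had 16889 and 15329 CPM in heads and 11179 and 12186 CPM in bodies of replicates 3 and 4. RpL8 in the earlier set had 2002 and 4883 CPM in heads and 2522 and 3606 CPM in bodies of replicates 1 and 2 (log2 fold change 2.08 with SE 0.42, edgeR adjusted p = 0.00462). The most read gene of the list, RpL40, which encodes a fusion of ubiquitin and a ribosomal protein, had 24637 and 20866 CPM in heads and 13808 and 11512 CPM in bodies of replicates 3 and 4. Against this, RpL40 had 12826 and 21919 CPM in heads and 13076 and 22253 CPM in bodies of replicates 1 and 2, with overlapping sets (log2 fold change -0.05, edgeR adjusted p = 0.944). The labels do not record how reads shared by near-identical copies were handled, and single members of such families are uncertain.

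Genes of neurons and of the eye moved in both directions. Of 11 neuronal genes, 4 rose and 3 fell, and of 9 phototransduction genes 3 rose and 2 fell. Syt1, the calcium sensor of synaptic vesicles, had 993 and 873 CPM in heads and 101 and 35.7 CPM in bodies of replicates 3 and 4. Syt1 had 32851 and 12456 CPM in heads and 3026 and 1072 CPM in bodies of replicates 1 and 2 (log2 fold change -4.75 with SE 0.61, edgeR adjusted p = 0.000650). Gad1, which makes the transmitter GABA, had 219 and 136 CPM in heads and 16.2 and 6.70 CPM in bodies of replicates 3 and 4. By comparison, Gad1 had 929 and 554 CPM in heads and 143 and 111 CPM in bodies of replicates 1 and 2 (log2 fold change -2.71 with SE 0.46, edgeR adjusted p = 0.00217). Rbp9, an RNA-binding protein of the ELAV family, was higher with 984 and 893 CPM in heads and 712 and 502 CPM in bodies of replicates 3 and 4. Rbp9 in the earlier set had 379 and 343 CPM in heads and 136 and 96.1 CPM in bodies of replicates 1 and 2 (log2 fold change 1.87 with SE 0.34, edgeR adjusted p = 0.00298). The blue rhodopsin gene Rh5 had 151 and 165 CPM in heads and 2.57 and 3.72 CPM in bodies of replicates 3 and 4. Against this, Rh5 had 15.5 and 0 CPM in heads and 0.965 and 3.69 CPM in bodies of replicates 1 and 2 (log2 fold change 3.37 with SE 0.87, edgeR adjusted p = 0.0140). The gene santa-maria, a scavenger receptor of the carotenoid route to the visual pigment, had 2657 and 2075 CPM in heads and 370.3 and 188 CPM in bodies of replicates 3 and 4. santa-maria had 174 and 20.1 CPM in heads and 49.2 and 40.6 CPM in bodies of replicates 1 and 2 (log2 fold change 3.62 with SE 0.72, edgeR adjusted p = 0.00449). Arr1, an arrestin that ends the response of rhodopsin to light, fell, with 19030 and 18036 CPM in heads and 18.8 and 30.5 CPM in bodies of replicates 3 and 4. By comparison, Arr1 had 76589 and 32420 CPM in heads and 3679 and 6207 CPM in bodies of replicates 1 and 2 (log2 fold change -4.55 with SE 1.52, edgeR adjusted p = 0.0403). That call was lost on leaving out head replicate 3 or 4, body replicate 3 or 4 or body replicate 1 (adjusted p between 0.0503 and 0.145). The glial genes went apart, since Eaat1, a glutamate transporter, rose (log2 fold change 1.54 with SE 0.36, edgeR adjusted p = 0.00872; -2.49 with reads past gene ends left out) and nrv2, a sodium pump subunit, fell. The gene nrv2 had 3563 and 3155 CPM in heads and 753 and 771 CPM in bodies of replicates 3 and 4. nrv2 in the earlier set had 46296 and 1793 CPM in heads and 4217 and 3802 CPM in bodies of replicates 1 and 2 (log2 fold change -2.62 with SE 0.79, edgeR adjusted p = 0.0282). Head replicate 1 held by far the most (log2 fold change -1.07 and adjusted p = 0.255 without it; the call was also lost without body replicate 1 or any 1 library of replicates 3 and 4). In bulk samples such as these, fewer cells of a type and less RNA per cell cannot be told apart.

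Head markers were also more abundant in the bodies of the earlier set. The level of Arr1 in bodies was 0.0989% and 0.169% of that in heads of the same number in replicates 3 and 4, against 4.80% and 19.1% in replicates 1 and 2. For ninaC, a myosin of photoreceptors, these shares were 0.0851% and 0.241% in replicates 3 and 4 and 4.17% and 6.55% in replicates 1 and 2, with 7032 and 6490 CPM in heads of replicates 3 and 4 and 6088 and 5696 CPM in heads of replicates 1 and 2. VGlut, the vesicular glutamate transporter, showed 5.52% and 5.23% against 17.7% and 15.2%. Pph13, a homeobox gene, went against this in 1 library, since body replicate 2 had 0 CPM, and its set difference, not called over the 8 libraries, was called without body replicate 1 (log2 fold change 2.65, edgeR adjusted p = 0.00789). The reverse measure, the male gene Acp26Aa in heads as a share of bodies, was 3.25% and 0.4575% in replicates 3 and 4 and 0.923% and 0.833% in replicates 1 and 2, so that head replicate 3 was the highest there. What part such RNA had in the changes of eye and neuronal genes was not tested.

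Among the other lists, cuticle protein genes rose in 4 of 6 cases with none fallen (median log2 fold change 2.48). Pcp, a pupal cuticle protein gene, had 40.9 and 44.6 CPM in heads and 14.5 and 8.19 CPM in bodies of replicates 3 and 4. Against this, Pcp had 0 and 3.36 CPM in heads and 0.965 and 0 CPM in bodies of replicates 1 and 2 (log2 fold change 4.48 with SE 0.74, edgeR adjusted p = 0.00172). Of 19 detoxification genes 6 rose and 3 fell, the P450 genes Cyp4e3 (log2 fold change 5.19 with SE 1.04, edgeR adjusted p = 0.00448) and Cyp28a5 (log2 fold change 2.61 with SE 0.38, edgeR adjusted p = 0.00102) among the rises. Cyp4e3 had 532 and 182 CPM in heads and 846 and 141 CPM in bodies of replicates 3 and 4. Cyp4e3 had 1.55 and 40.3 CPM in heads and 3.86 and 11.1 CPM in bodies of replicates 1 and 2. In the later set replicate 3 was above replicate 4. Of 5 proton pump genes 2 rose, VhaSFD (log2 fold change 2.08) and Vha68-2 (1.86). The histone variant gene His3.3A rose (log2 fold change 2.84 with SE 0.47, edgeR adjusted p = 0.00172), as did the immune regulators cact, an inhibitor of the NF-kappaB factors (1.4995), and dl, one of those factors (0.91), while Dif, another of them, fell (-1.61). Gad1, Dif and Vha68-2 also have their most read sites 1 or 2 nt past the annotated end, and stood at 0.03, 0.25 and -0.91 without reads past gene ends. Of 7 genes of Pol II and elongation 0 rose and 2 fell, dre4, a subunit of the FACT complex (-3.16), and Ctr9, of the PAF1 complex (-1.61). Muscle genes fell in 2 of 4 cases, Mhc, the myosin heavy chain (-1.84), and Msp300 (-2.06), with sls, a titin-like gene, at 1.17 and not called. Leaving out 1 library ended the calls of Mhc (6 of the 8 libraries, adjusted p up to 0.167, log2 fold change -0.997 without body replicate 1), Vha68-2 (5 libraries, up to 0.0824), dl (5 libraries, up to 0.0962) and cact (head or body replicate 3, up to 0.0613), and sls was called without body replicate 1 (1.99, adjusted p = 0.00428).

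Male germline and accessory gland genes were called in 5 of 24 cases, 2 higher and 3 lower (median -0.19). Acp24A4 had 228 and 20.9 CPM in heads and 9395 and 10447 CPM in bodies of replicates 3 and 4. By comparison, Acp24A4 had 17.1 and 6.72 CPM in heads and 1685 and 1297 CPM in bodies of replicates 1 and 2 (log2 fold change 2.98 with SE 0.69, edgeR adjusted p = 0.00866). Acp26Aa, a seminal fluid protein, had 195 and 28.5 CPM in heads and 6009.8 and 6219.7 CPM in bodies of replicates 3 and 4. Acp26Aa in the earlier set had 43.5 and 57.1 CPM in heads and 4716 and 6854 CPM in bodies of replicates 1 and 2 and was not called (edgeR adjusted p = 0.432). Of 3 circadian genes edgeR called none, and 1 of them, the clock repressor tim, had 923 and 1276 CPM in heads and 518 and 243 CPM in bodies of replicates 3 and 4. Against this, tim had 558 and 1222 CPM in heads and 471 and 292 CPM in bodies of replicates 1 and 2 (log2 fold change 0.15, edgeR adjusted p = 0.793). Of 148 long non-coding RNA genes 39 were lower and 10 higher (median -0.37), and of 39 antisense RNA genes 9 were lower and 4 higher (median 0.01). Of the remaining lists, fat body genes had 1 higher and 2 lower of 7, serpins 2 and 1 of 7, digestive enzymes 2 and 0 of 8, chemosensory genes 1 and 2 of 10, heat shock genes 1 and 2 of 4, immune genes 2 and 1 of 6, and eye pigment genes 0 and 1 of 2. Both eggshell and oocyte genes tested, the 1 histone gene tested and 1 of 2 cleavage and polyadenylation genes were higher. Of these, the oocyte genes grk and vas lost their calls on leaving out 1 library, grk any of 5 libraries (adjusted p up to 0.102) and vas head or body replicate 3 (up to 0.0686). Among the counted members of other lists, the called genes Hsp60D, Hsp83, Mal-B1, Mal-B2, Spn27A and Spn28B also lost their calls without at least 1 library. The gene lists were not tested as sets, and their counts stand beside 39.0% of all genes called.

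**Figure D3:**
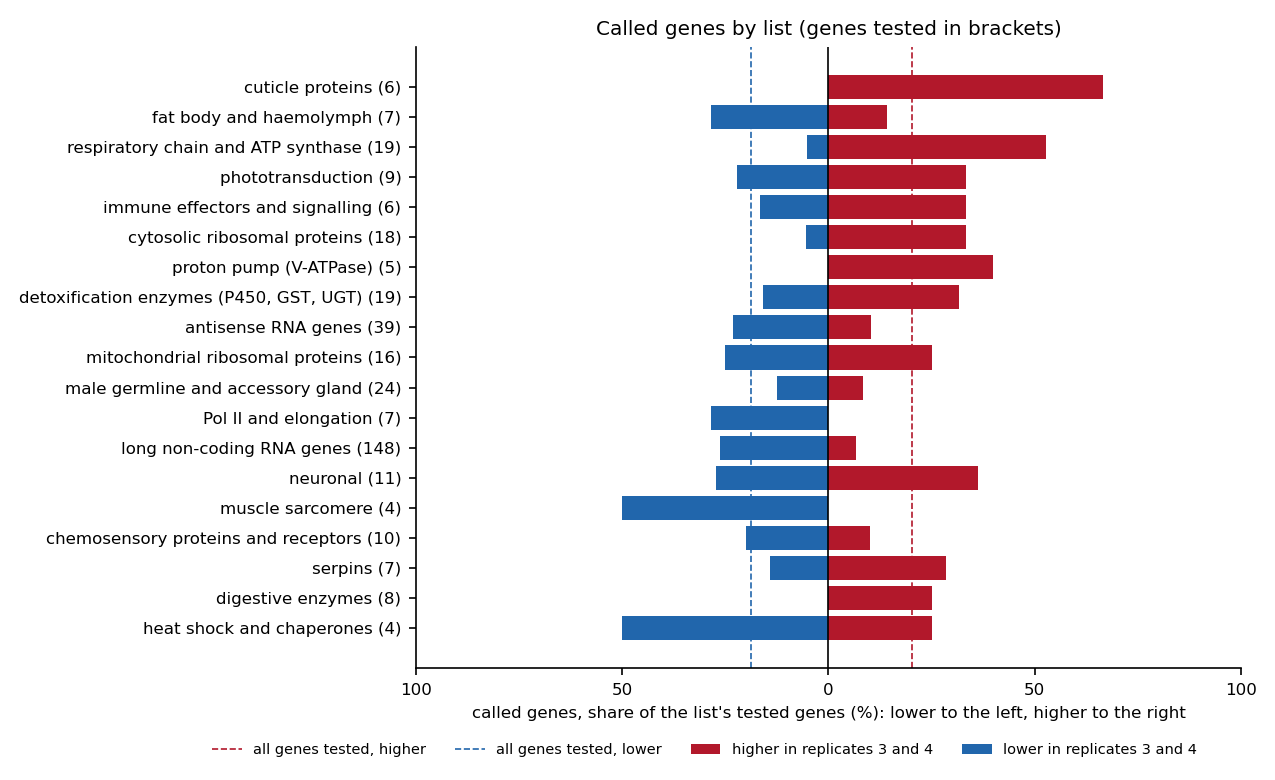
Share (%) of each list's tested genes that were called higher in replicates 3 and 4 (red, to the right) or lower (blue, to the left), for lists with at least 4 tested genes, ordered by their median log2 fold change. Dashed lines give the shares over all 2638 genes, 20.3% higher and 18.7% lower; the respiratory chain list had 10 of 19 genes higher and 1 lower, and the long non-coding RNA genes 10 of 148 higher and 39 lower.

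At the level of single sites, 10071 of 20468 were called, 5244 higher and 4827 lower in replicates 3 and 4 (49.2%, edgeR's quasi-likelihood test). With replicate number as a random effect limma called 8761 sites, against 10064 in limma without it. The share called ran from 47.3% on 2L to 53.6% on X over the large chromosome arms, and was 48.9% on the minus and 49.5% on the plus strand. Of 968 named genes with at least 2 tested sites, 187 (19.3%) had called sites in both directions, and in 119 of these the summed reads of the gene were not called. In 674 tested sites replicates 1 and 2 had 0 reads in all 4 libraries, and in 133 sites replicates 3 and 4 did. Such a site passed the filter on low counts only through the other set. The earlier libraries held fewer reads in each tissue, and these counts were not made at equal depth. Both libraries of replicate 2 were at 0 in 2752 tested sites, against 920 for replicate 1, 308 for replicate 3 and 266 for replicate 4, and replicate 2 also had the fewest reads.

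RpL24, of the large ribosomal subunit, had a site of this kind. Its site at 2L, minus strand, position 13394299 (build BDGP5, as in the files) had 520.4 and 525 CPM in heads and 667 and 693 CPM in bodies of replicates 3 and 4. At 13394299 there were 0 and 0 CPM in heads and 0 and 0.451 CPM in bodies of replicates 1 and 2 (edgeR adjusted p = 0.000252). CPM of sites were scaled to the reads of all tested sites and are not on the scale of the gene levels. Another site of the gene, 177 nt further on at 13394122, had 352 and 303 CPM in heads and 322 and 234 CPM in bodies of replicates 3 and 4. At 13394122 there were 520.5 and 219.8 CPM in heads and 501 and 245 CPM in bodies of replicates 1 and 2, with overlapping sets (edgeR adjusted p = 0.567). Counted reads of the RpL24 pair in the earlier set thus lay almost only at the distal site, which held 33.7% ± 6.47 of the pair's reads in replicates 3 and 4 and 99.95% ± 0.0919 in replicates 1 and 2 (SD, n = 4 each). CG13917 was alike in kind. Its site at 3L, plus strand, 1599874 had 176 and 154 CPM in heads and 68.6 and 45.6 CPM in bodies of replicates 3 and 4, against 0 and 0 CPM in heads and 0 and 0 CPM in bodies of replicates 1 and 2, at least 548-fold higher on a floor of 3 counts in the 4 earlier libraries together, while the site 987 nt further on, at 1600861, was not called (edgeR adjusted p = 0.0701). Sites outside named genes at 2L, plus strand, 12874486 and at 2L, minus strand, 12388778 were also at 0 in all 4 earlier libraries and at least 370-fold and 251-fold higher.

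Sites of the opposite kind were present in the earlier set. The site at 3L, plus strand, 21909424 had 0 and 0 CPM in heads and 0 and 0 CPM in bodies of replicates 3 and 4, against 45.7 and 46.4 CPM in heads and 96.7 and 51.9 CPM in bodies of replicates 1 and 2, at least 635-fold lower on the same floor. At 3L, minus strand, 22782337 the levels were 12.1 and 13.7 CPM in heads and 0.563 and 0.375 CPM in bodies of replicates 3 and 4. At 22782337 there were 7399 and 1899 CPM in heads and 1105 and 144 CPM in bodies of replicates 1 and 2. The site on chromosome 4, minus strand, 876312 had 0 and 0.257 CPM in heads and 0 and 0.125 CPM in bodies of replicates 3 and 4, against 2.96 and 228 CPM in heads and 1.71 and 115 CPM in bodies of replicates 1 and 2, so that replicate 2 held nearly all of its reads. The last of the 4, at 3L, minus strand, 11726689, had 0 and 0.257 CPM in heads and 0 and 0 CPM in bodies of replicates 3 and 4. At 11726689 there were 59.4 and 117 CPM in heads and 4.82 and 6.32 CPM in bodies of replicates 1 and 2. These 4 sites lie where genes were not named. Replicate 2 alone lacked some strong sites. RpLP1, a stalk protein of the ribosome, had at 2L, plus strand, 420703 3573 and 3433 CPM in heads and 3801 and 4929 CPM in bodies of replicates 3 and 4. At 420703 there were 1536 and 0.828 CPM in heads and 1289.8 and 1.35 CPM in bodies of replicates 1 and 2, and the set difference there was not called (edgeR adjusted p = 0.256). The far site of Syt1 at 2L, minus strand, 2772335 had 0 reads in replicate 2 of both tissues, against 1848 and 212 CPM in replicate 1.

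Heterochromatin and the mitochondrial genome were described apart from the large arms. Sites on XHet, unplaced heterochromatin of X, were called in 30 of 39 cases (76.9%, beside 49.2% of all sites tested), 23 higher. All reads on XHet came to 5889 and 6333 CPM of all reads in heads and 5813 and 5477 CPM in bodies of replicates 3 and 4, against 244 and 353 CPM in heads and 246 and 242 CPM in bodies of replicates 1 and 2. The leading site, on the plus strand at 195061, had 2234 and 2259 CPM in heads and 3239 and 2990.1 CPM in bodies of replicates 3 and 4. At 195061 there were 25.3 and 29.8 CPM in heads and 23.8 and 25.7 CPM in bodies of replicates 1 and 2. Reads on 2LHet went the other way, with 44.6 and 44.0 CPM in heads and 21.5 and 23.9 CPM in bodies of replicates 3 and 4, against 736 and 508 CPM in heads and 558 and 329 CPM in bodies of replicates 1 and 2. Neither set's range touched the other in these 2 measures (exact permutation test within tissues, two-sided p = 0.0556 for each, the smallest that 36 arrangements allow, 0.108 after adjustment over 31 library measures).

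The mitochondrial genome, whose transcripts are polyadenylated at the cuts between genes, held 23.4% and 23.8% of reads in heads and 24.2% and 18.3% in bodies of replicates 3 and 4, against 8.33% and 24.9% in heads and 5.31% and 17.8% in bodies of replicates 1 and 2. Replicate 1 was the low one in each tissue and replicate 2 lay close to the later set (exact permutation p = 0.278). Single mitochondrial sites differed in which replicate was high. The most read site, on the plus strand at 5543, had 135180 and 123740 CPM in heads and 186790 and 128660 CPM in bodies of replicates 3 and 4. At 5543 there were 39846 and 250420 CPM in heads and 23846 and 174850 CPM in bodies of replicates 1 and 2. The site on the minus strand at 12733 had 52313 and 48361 CPM in heads and 74715 and 42444 CPM in bodies of replicates 3 and 4. At 12733 there were 37448 and 1593 CPM in heads and 29597 and 2232 CPM in bodies of replicates 1 and 2. The one on the plus strand at 11637 had 18722 and 18101 CPM in heads and 25514 and 19565 CPM in bodies of replicates 3 and 4. At 11637 there were 5059.8 and 547 CPM in heads and 3652 and 454 CPM in bodies of replicates 1 and 2 (log2 fold change 3.09 with SE 0.85, edgeR adjusted p = 0.0155). Of 18 mitochondrial sites tested, 9 were called, a share of 50% that is close to the 49.2% of all sites tested. All 9 were higher in replicates 3 and 4, beside 5244 of the 10071 sites called over the genome.

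Which of 2 sites ended the 3'UTR was compared in 723 genes by reads at the 2 most used sites, the distal one against the proximal one, which takes no account of the gene's level. In 296 genes the choice differed (40.9%), 145 toward the distal and 151 toward the proximal site in replicates 3 and 4, and the count moved either way when replicate number was used as a block. It was 447 with the number as a fixed term in edgeR, a fit that removes differences between replicate numbers from the error. The p-values of that fit therefore do not measure the spread between replicate numbers. It was 227 with the number as a random effect in limma, against 288 in limma without it. The change was at least 25 percentage points in 221 of the 296. In 182 of them the gene's level was not called. The sign was the same in heads and bodies in 283 of the 291 that had reads in every group, which a call pooled over both tissues favours. The median share of the distal site over genes was 61.1% and 62.4% in heads and 42.0% and 39.5% in bodies of replicates 3 and 4, against 68.7% and 61.3% in heads and 37.4% and 29.9% in bodies of replicates 1 and 2 (difference of means 1.94 percentage points, -3.24 in heads and 7.11 in bodies, exact permutation p = 0.611). The share of genes called was 40.1% among pairs 26 to 109 nt apart and 33.1% at 111 to 172 nt. It was 42.8% at 173 to 296 nt, 46.5% at 298 to 532 nt and 42.1% at 533 to 9298 nt.

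The distal site of fwd, a phosphatidylinositol 4-kinase, held 99.4% and 99.3% of its pair's reads in heads and 95.9% and 96.2% in bodies of replicates 3 and 4, against 0 of 219 reads in replicates 1 and 2 together, which allows a share of up to 1.37%, a limit that covers counting error only (edgeR adjusted p = 0.000195). Nearly all of the 219 reads came from replicate 2, with 144 in the head and 72 in the body library, and replicate 1 had 0 and 3. The 2 sites, at 305394 and 305663 on 3L, minus strand, lie 269 nt apart. sau, a Golgi protein that binds phosphatidylinositol 4-phosphate, used its distal site, 73 nt past the proximal one, for 91.9% and 85.4% in heads and 88.7% and 69.1% in bodies of replicates 3 and 4. sau had 4.17% and 0% in heads and 0% and 0% in bodies of replicates 1 and 2 (edgeR adjusted p = 0.000315). PLCXD, a protein with a phospholipase C domain, had distal shares of 92.0% and 93.0% in heads and 91.3% and 93.6% in bodies of replicates 3 and 4. By comparison, PLCXD had 6.38% and 8.33% in heads and 21.4% and 0% in bodies of replicates 1 and 2 (edgeR adjusted p = 0.000195). The gene hbt had distal shares of 86.8% and 92.3% in heads and 95.2% and 100% in bodies of replicates 3 and 4. hbt in the earlier set had 13.0% and 0% in heads and 25.0% and 0% in bodies of replicates 1 and 2 (edgeR adjusted p = 0.000740). The later set was above the earlier in each of these 4 genes, which were chosen for the size of their rise. Some earlier shares rest on very few reads of the pair. The sau pair had 2 reads in head and 3 in body replicate 2. In body replicate 2, PLCXD had 1 read and hbt had 2. CG42748 and cad, a homeobox gene, completed the 6, with changes of 81.7 and 75.8 percentage points, cad on no more than 1 read in any head library and not called without body replicate 3 or 4 (adjusted p = 0.105 and 0.119). CG42748 had 1 read in each body library of replicates 1 and 2.

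Toward the proximal site, COX5B, a subunit of cytochrome c oxidase, had the most reads of the 6 genes named by their change. Its distal site, 225 nt past the proximal one on 2L, held 4.26% and 4.19% in heads and 7.22% and 9.50% in bodies of replicates 3 and 4. Against this, COX5B had 97.6% and 91.7% in heads and 98.0% and 66.7% in bodies of replicates 1 and 2 (edgeR adjusted p = 0.000382). The distal site held 551 of the pair's reads in replicates 3 and 4, against 8070 at the proximal site, and 4163 in replicates 1 and 2, against 96 at the proximal site. Replicate 2 contributed only 12 and 9 reads, and the summed level of the gene was not called (log2 fold change 0.55). BicD, an adaptor that links cargo to dynein, used its distal site, 1206 nt past the proximal one, for 20.2% and 13.8% in heads and 1.79% and 1.41% in bodies of replicates 3 and 4. BicD had 100% and 100% in heads and 66.7% and 100% in bodies of replicates 1 and 2 (edgeR adjusted p = 0.000270). CG11147 had at its distal site 10.3% and 9.55% in heads and 13.1% and 17.2% in bodies of replicates 3 and 4. By comparison, CG11147 had 86.1% and 95.4% in heads and 89.4% and 99.0% in bodies of replicates 1 and 2, with both earlier replicates alike (edgeR adjusted p = 0.000270). CG44085, CG45011 and Semp1 completed the 6, with falls of the distal share by 92.0, 88.7 and 80.8 percentage points. The earlier head shares of CG45011 and Semp1 rest on 5 reads and 1 read in head replicate 1. BicD had 3 reads in body replicate 2.

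**Figure D4:**
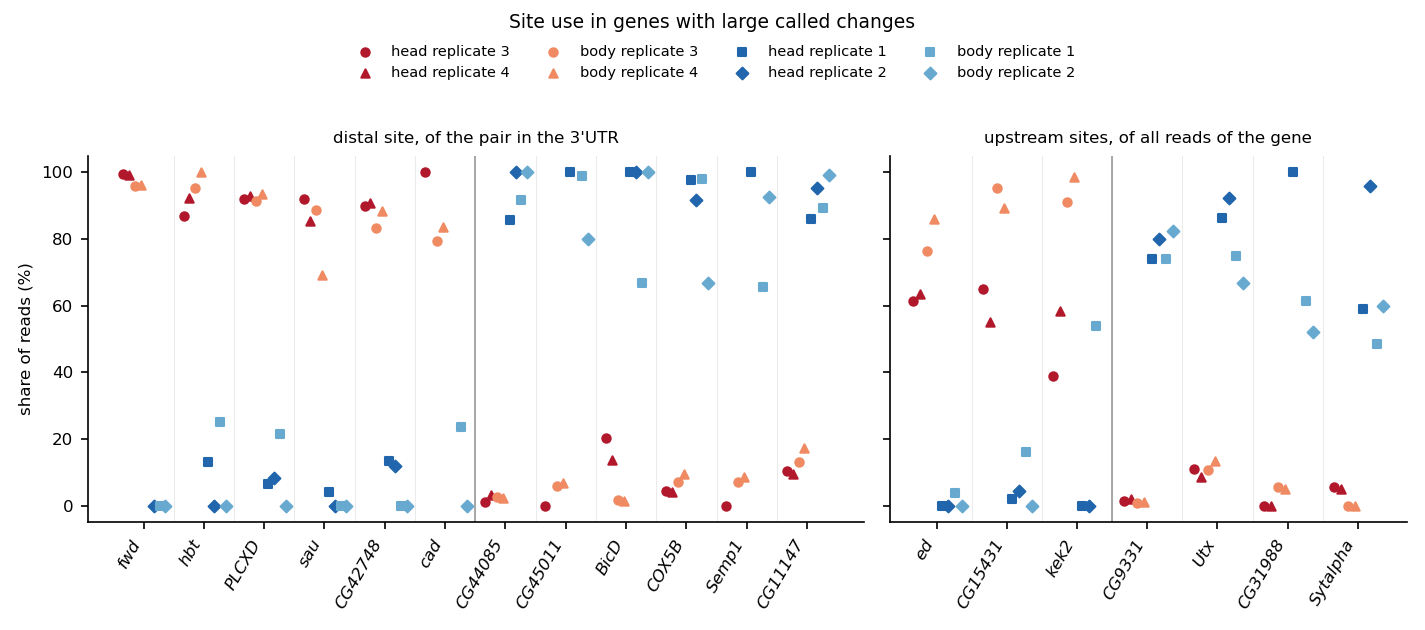
Share of reads (%) at the distal site of a gene's 3'UTR pair (left) and at sites upstream of the last coding base (right) in each of the 8 wild-type libraries, for called genes among those with the largest changes, higher in replicates 3 and 4 before each line and lower after it. Red and orange marks are heads and bodies of replicates 3 and 4, dark and light blue marks those of replicates 1 and 2. A library with no reads has no mark, and some blue marks rest on a few reads, such as those of COX5B in replicate 2 with 12 and 9.

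Use of sites upstream of the last coding base differed in 124 of 731 coding genes, 71 higher and 53 lower in replicates 3 and 4 (17.0%), in 199 with the block as a fixed term in edgeR, and in 61 or 71 without head replicate 3 or 4. With the block as a random effect limma called 93, against 159 without it. ed, a cell adhesion protein, had at upstream sites 61.3% and 63.5% in heads and 76.2% and 85.9% in bodies of replicates 3 and 4. ed in the earlier set had 0% and 0% in heads and 3.85% and 0% in bodies of replicates 1 and 2 (edgeR adjusted p = 0.000588). The counted reads of ed were 214 at upstream and 82 at 3'UTR sites in the later set, and 1 and 68 in the earlier. Utx, a demethylase of histone H3, went the other way with 11.1% and 8.62% in heads and 10.8% and 13.5% in bodies of replicates 3 and 4. Against this, Utx had 86.2% and 92.2% in heads and 74.9% and 66.7% in bodies of replicates 1 and 2 (edgeR adjusted p = 0.000368). CG9331 had upstream shares of 1.48% and 1.97% in heads and 0.858% and 1.10% in bodies of replicates 3 and 4. CG9331 had 74.1% and 80.0% in heads and 73.9% and 82.4% in bodies of replicates 1 and 2 (edgeR adjusted p = 2.73e-05), on 34 or fewer upstream reads in any library. CG15431 and kek2 were further rises, by 70.5 and 53.8 percentage points, kek2 not being called with the fixed block (edgeR adjusted p = 0.0877) or without 1 of 5 libraries (up to 0.163), and CG31988 and Sytalpha, of the synaptotagmin family, the other 2 falls, by 68.6 and 63.2. The earlier share of kek2 rests on 7 upstream and 13 3'UTR reads. In heads, CG31988 had 0 upstream reads beside 4 and 2 at 3'UTR sites in replicates 3 and 4, and only 1 upstream read in replicate 1. Over all reads of the 731 genes, upstream sites held 18.3% and 19.2% in heads and 22.5% and 23.2% in bodies of replicates 3 and 4, against 23.7% and 27.3% in heads and 33.9% and 35.3% in bodies of replicates 1 and 2, without overlap within a tissue (exact permutation p = 0.0556). The median upstream share per gene differed by 0.736 percentage points (exact permutation p = 0.444), by 1.97 in heads and -0.496 in bodies, and by -0.393 after thinning to the smallest library.

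The exact base at which reads ended was compared at 943 plus-strand and 930 minus-strand anchor positions, each the most used position of a strong site in the mutant libraries, with reads within 12 nt counted. On the plus strand, 75.1% to 75.2% of these reads lay on the anchor in replicates 3 and 4 and 69.7% to 71.4% in replicates 1 and 2. At each library's own most used position the order was reversed, with 76.63% to 76.68% in replicates 3 and 4 and 76.85% to 77.44% in replicates 1 and 2. The share on an anchor chosen in the mutant thus does not measure how sharply a library's reads ended. On the minus strand the shares on the anchor were 75.3% and 75.4% in heads and 75.3% and 75.4% in bodies of replicates 3 and 4, against 70.7% and 1.28% in heads and 70.9% and 1.29% in bodies of replicates 1 and 2. Replicate 2 thus stood alone on the minus strand. In its head library 24.2%, 23.6%, 16.7% and 6.45% of the reads lay 1, 2, 3 and 4 nt upstream of the anchor, and its body library had 23.5%, 16.7% and 6.50% at 2, 3 and 4 nt. Its own most used position still held 76.4% and 75.8% of the reads, beside 75.9% to 76.5% in the other 6 libraries. That position was the anchor in 15 of 930 sites in both tissues of replicate 2, against 883 to 892 in replicates 3 and 4 and 773 in replicate 1. Of these sites, head and body of replicate 2 had the same most used position in 94.6%. Positions within 24 nt were joined here, so such a displacement leaves a site's count nearly as it was, but a comparison at single-base positions would read it as a change of site.

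**Figure D5:**
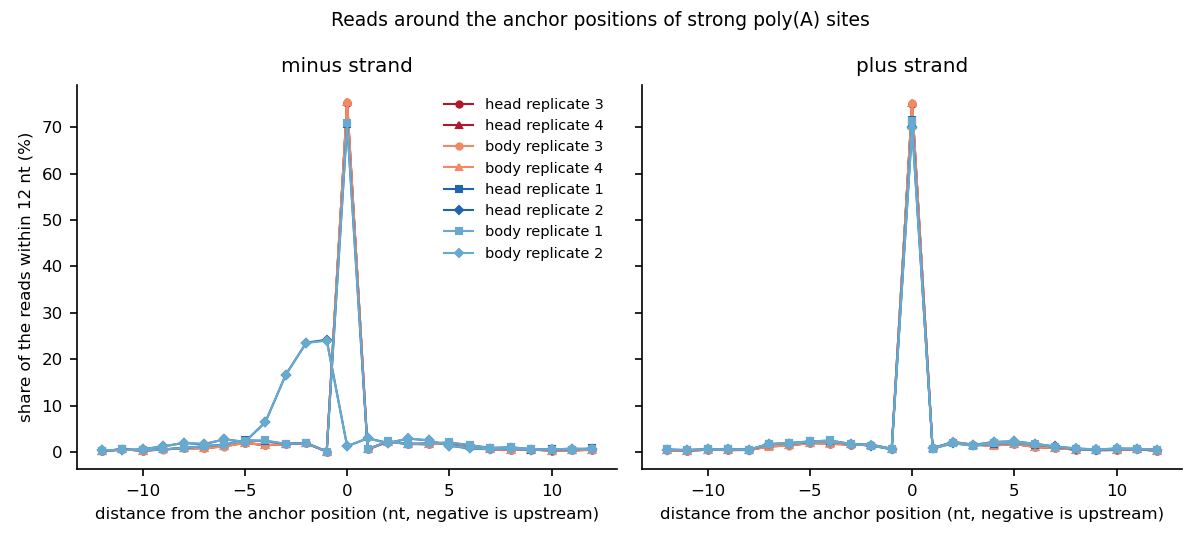
Share (%) of the reads within 12 nt of an anchor position by distance from it (nt, negative is upstream), over 930 minus-strand (left) and 943 plus-strand anchors (right), with 1 line for each wild-type library. Red and orange lines are replicates 3 and 4, blue lines replicates 1 and 2; on the minus strand both replicate 2 libraries have 1.28% and 1.29% at distance 0 and their reads 1 to 4 nt upstream, while the other 6 libraries peak at 0.

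The mutant libraries, which carry sample numbers of the later range, lay closer to the later wild-type set. On 1 scale over all 12 libraries, the mutant mean of log2(CPM + 1) was nearer to replicates 3 and 4 than to replicates 1 and 2 in 938 of the 1028 called genes (91.2%) and in 77.4% of all genes tested.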

How the data were processed

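Per the submitters' processing notes, reads were aligned with Bowtie2 to build BDGP5. The authors deposited, for each library, the raw count of reads at every position where a tail began, with strand and without gene names or normalization. Filters on tails, and which protocol made which library, are unstated in the sources used here. Either could change which ends are counted. Positions on a strand within 24 nt were joined into sites over pooled reads (252808 sites, read-weighted median width 175 nt, so close sites may be merged). Gene models came from build BDGP6. Coordinates were kept as deposited, and genes were named only up to 22258266 on 2L and 4919025 on 3L, where 61.7% and 57.5% of strong positions lay within 10 nt of an annotated transcript end, against 0.256% and 0.227% after a move of 5000 nt. Reads were given to 1 gene by strand, with 1000 nt allowed past its end, and reads of overlapping genes (8.96%) and outside genes (0.825%) were left out, as were genes of other arms.

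Tests used edgeR 4.0.16 (quasi-likelihood, TMM, filterByExpr, Benjamini-Hochberg adjustment) on counts with set and tissue as terms, in R 4.3.3. Site choice was fitted on paired read columns, 1 per class, each library having its own term. Pairs averaged 20 reads or more, and the less used site held 5% or more (1% for upstream classes). Library measures used exact permutation within tissues. DESeq2 1.42.0, limma 3.58.1 with statmod 1.5.0, matplotlib 3.10.9, scipy 1.17.1, pandas 2.3.3 and numpy 2.4.6 under Python 3.11.15 were also used, and the fits were tested on simulated counts. The comparison, gene lists, markers and rule for named genes were chosen with earlier results of these data known. Named were the 10 genes that rose most and the 10 that fell most (called, averaging 10 CPM or more, sets apart in both tissues), up to 3 genes per list by adjusted p, the 5 genes with the most reads, 4 genes each way for the set-by-tissue term, 6 for 3'UTR choice, 4 for upstream use and 4 sites outside 2R. The result of 1 gene that the rule names is not reported here. Named members beyond the rule, such as ND-51 and the sites of RpLP1 and Syt1, were chosen after their values were seen. Libraries of a pair differed by more than sampling noise (chi-square over degrees of freedom 8.18 to 129). Heads and bodies of the same number deviated together over sites (correlation 0.157 for replicates 3 and 4 and 0.710 for 1 and 2) and, over genes, in replicates 1 and 2 only (0.0741 and 0.619). The main fits took them as independent, so block values are given beside the main counts.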

Additional observations from a re-analysis of the deposited data

Results flagged for a closer look

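Of the named genes, 6 lay in opposite directions in heads and bodies, every library of replicates 3 and 4 being on 1 side of replicates 1 and 2 in heads and on the other side in bodies. The difference itself, head minus body, was tested by edgeR's interaction term and called in none of them. The odorant-binding protein gene Obp28a had 423 and 467 CPM in heads and 0.855 and 0 CPM in bodies of replicates 3 and 4, against 255 and 419.8 CPM in heads and 44.4 and 48.0 CPM in bodies of replicates 1 and 2 (interaction log2 change 6.80, edgeR adjusted p = 0.0952). The developmental gene oaf had 70.6 and 90.1 CPM in heads and 23.9 and 17.1 CPM in bodies of replicates 3 and 4, against 6.22 and 6.72 CPM in heads and 66.6 and 144 CPM in bodies of replicates 1 and 2 (interaction log2 change 5.94, edgeR adjusted p = 0.0952). CG18808 had 284 and 250.4 CPM in heads and 142 and 112 CPM in bodies of replicates 3 and 4, against 137 and 111 CPM in heads and 2241 and 1367 CPM in bodies of replicates 1 and 2 (interaction log2 change 4.94, edgeR adjusted p = 0.0952). ninaC, the photoreceptor myosin, had 7032 and 6489.6 CPM in heads and 5.99 and 15.6 CPM in bodies of replicates 3 and 4, against 6088 and 5696 CPM in heads and 254 and 373 CPM in bodies of replicates 1 and 2 (interaction log2 change 5.03, edgeR adjusted p = 0.146). VGlut had 775 and 697 CPM in heads and 42.8 and 36.5 CPM in bodies of replicates 3 and 4, against 437 and 658 CPM in heads and 77.2 and 99.8 CPM in bodies of replicates 1 and 2 (interaction log2 change 1.58, edgeR adjusted p = 0.918). In these 5 genes the later set was higher in heads and lower in bodies. CG31848 went the other way, with 0 and 0 CPM in heads and 99.2 and 124 CPM in bodies of replicates 3 and 4, against 1.55 and 3.36 CPM in heads and 40.5 and 70.2 CPM in bodies of replicates 1 and 2 (interaction log2 change -5.05, edgeR adjusted p = 0.693). Its head values lie at the floor, so its direction in heads rests on very few reads.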

How the results depend on the processing

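The expression count of 1028 came to 391 in heads alone, 501 in bodies alone and 568 without reads past gene ends, and to 734 to 1023 when 1 library was left out. Sites came to 4376 in heads alone, 4778 in bodies alone, 6663 after thinning to the smallest library (2797 higher and 3866 lower) and 7528 to 10917 when 1 library was left out. 3'UTR choice came to 447 with the fixed replicate block, 227 with the random one, 170 after thinning, 451 against replicate 1 alone and 208 to 315 when 1 library was left out. Upstream use came to 199 with the fixed block, 93 with the random one, 75 after thinning, 229 and 222 against replicate 1 and replicate 2 alone and 61 to 150 when 1 library was left out. The interaction count of 0 came to 24 with DESeq2 and 11 with the replicate block, and tissue calls to 1124 to 1420 when 1 library was left out. Expression calls with the fixed replicate block, which removes differences between replicate numbers from the error, were 1379. With the random block limma called 918 genes, against 1071 without it. Site calls were 13535 with the fixed block and 8761 with the random one, against 10064 in limma without a block. Heads and bodies of a number deviated together over sites but not, in replicates 3 and 4, over genes. The settings against replicate 1 or 2 alone were added after seeing the data. DESeq2 size factors moved the median log2 change of all genes from 0.11 to -0.07, a shift of -0.18, with 1082 calls. Over named genes, 185 of 2053 recomputed expression values lost their call and 45 gained one. Calls were lost with limma voom, with and without its random block, in Hacd2, nrv2 and CG12003, with that block alone in CG13962, Rh5, Mhc and dl, with DESeq2 size factors in CG12003, Vha68-2 and dl, and without reads past gene ends in Cyp4e3, CG17376, grk and dl. Fewer libraries, reads or genes entered the fits by tissue, after thinning and without reads past gene ends.

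Signs turned without reads past gene ends in Aldh (0.74), CG17108 (4.17), Dif (0.25), Eaat1 (-2.49), Gad1 (0.033), Vha68-2 (-0.91) and oaf (-2.29), whose most read sites lie 1 to 6 nt past the annotated end and so leave the count. oaf was at -2.24 in bodies alone and ninaA at 2.49 against replicate 1 alone; the cause was not tested. Without positions under 5 pooled reads, the pair of sites was itself another one in CG42748 (-2.20) and CG44085 (7.68).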
